A study of Mus musculus with 4 samples.

Results

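The sodium and potassium channel genes of mouse sciatic nerve were described as the probes of an expression array whose gene symbol began with Kcn and a further letter, or with Scn or Hcn and a number, followed for Scn by a or b for the subunit. This rule used no measured value and found 202 probes of 101 genes. The array table holds 45281 probes, of which 34885 carry a single gene symbol, for 19057 genes. RNA was measured on 4 Illumina arrays, each with a pool of 3 sciatic nerves from 3 different mice, all at P60 and of a mixed FVB/C57BL/6 strain. The LKB1-SCKO pools came from 6 mutant mice in which Schwann cells lack LKB1, a kinase encoded by Stk11, and the control pools from 6 mice that carried the floxed Stk11 allele without Cre recombinase. The promoter that drives Cre is not given in the sources used here, so whether all other cells of the nerve keep the gene was not checked. The study's title places these nerves at a time when axons of the mutants have yet to degenerate.

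Voltage-gated sodium channels carry the inward current of the action potential, each built from a pore-forming alpha subunit and small beta subunits, and potassium channels repolarise the membrane or hold it at rest. In myelinated axons sodium channels cluster at the nodes of Ranvier and potassium channels of the Shaker type lie under the myelin beside them, while Schwann cells have potassium channels of their own and vessels of the nerve add further ones. Neuronal cell bodies lie outside the sciatic nerve, so most transcript in this tissue comes from Schwann cells, fibroblasts, perineurial, vascular and immune cells.

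Values are log2 intensities after background correction and normalization, and a fold change is LKB1-SCKO over control. A probe counted as detected where its deposited detection p-value was under 0.05, and it was tested where it was detected on both arrays of at least 1 genotype. Of the 202 probes, 55 and 51 were detected on the LKB1-SCKO arrays and 62 and 62 on the control arrays. The filter kept 55 probes of 39 genes, which is 27.2% of the probes, against 43.6% of all probes on the array. The remaining 62 genes had no probe that passed. Of these, 45 were detected on no array, among them Scn3a, the nociceptor sodium channel genes Scn10a and Scn11a, the neuronal channel gene Kcnd2 and the smooth muscle channel gene Kcnma1, and 17 on 1 or 2 arrays. For these genes the arrays set only an upper limit on signal.

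Stk11 itself stood at 8.93 and 9.01 in the LKB1-SCKO pools and at 9.70 and 9.83 in the control pools, a fall with log2 fold change -0.80 in the limma fit (SE 0.133, adjusted p = 0.0448), and the call was lost in 8 of 15 other settings, among them each setting without 1 pool (adjusted p from 0.0703 to 0.217). Whether its probe lies in the deleted part of the gene was not checked, so this value is a limited check of the labels. Myelin genes gave signals near the top of the scale on all arrays, with Mbp, which encodes myelin basic protein, at 15.69 and 15.84 in LKB1-SCKO and 15.89 and 15.75 in control pools. Of 9 neuronal markers, Snap25, Syt1, Nefl, Nefh and Tubb3 had no probe that passed the filter. The other 4 were detected on all arrays and none passed the threshold. Their log2 fold changes were 0.69 for Uchl1, -0.08 for Stmn2, -0.57 for Prph and -0.61 for Nefm. The pools also differed in other tissue. The summed intensity of 10 skeletal muscle markers was 17290 and 71032 in LKB1-SCKO and 58077 and 52230 in control pools, with LKB1-SCKO 1 standing apart, and that of 8 tested macrophage markers was 12714 and 12087 in LKB1-SCKO and 6789 and 9199 in control pools. Pigment cell markers, of which 3 of 4 tested rose, summed to 6471 and 5448 in LKB1-SCKO and to 177 and 134 in control pools. The blood markers Hba-a1 and Alas2 summed to 25863 and 49734 in LKB1-SCKO and to 13912 and 11353 in control pools, neither past the threshold. All 7 tested markers of perineurium and fibroblasts lay below 0 with none past the threshold, and summed to 79858 and 67380 in LKB1-SCKO and to 81324 and 93160 in control pools. The part of these cells in the values of the channel genes was not tested.

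Among the 39 channel genes tested, 1 passed the threshold of an adjusted p under 0.05 (limma, Benjamini-Hochberg over 10858 genes). It was Scn7a, which fell. No channel gene was called higher. This is 2.56% of the channel genes, beside 3.79% of all genes tested (1.34% lower and 2.46% higher). Below this threshold values leaned to the lower side: 26 of the 39 had a log2 fold change below 0, beside 48.4% of all genes, and their median was -0.14, beside 0.012 over all genes. Pools of the genotypes did not overlap for 24 channel genes, beside 55.1% of all genes, 16 of them lower (25.8% of all genes) and 8 higher (29.3%). At an unadjusted p under 0.05 there were 12 channel genes, 30.8%, beside 22.4% of all genes, of which 9 were lower, 23.1%, beside 10.4% of all genes, and 3 higher, beside 12% of all genes. The channel genes that passed the filter include ones that passed through 1 genotype only, so these counts are given as descriptions. They use measured differences, also for Kcnc1, Kcnf1, Kcne1 and Kcnj6, not detected in LKB1-SCKO, and Kcnj11, not detected in control pools, where only bounds can be had.

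**Figure D1:**
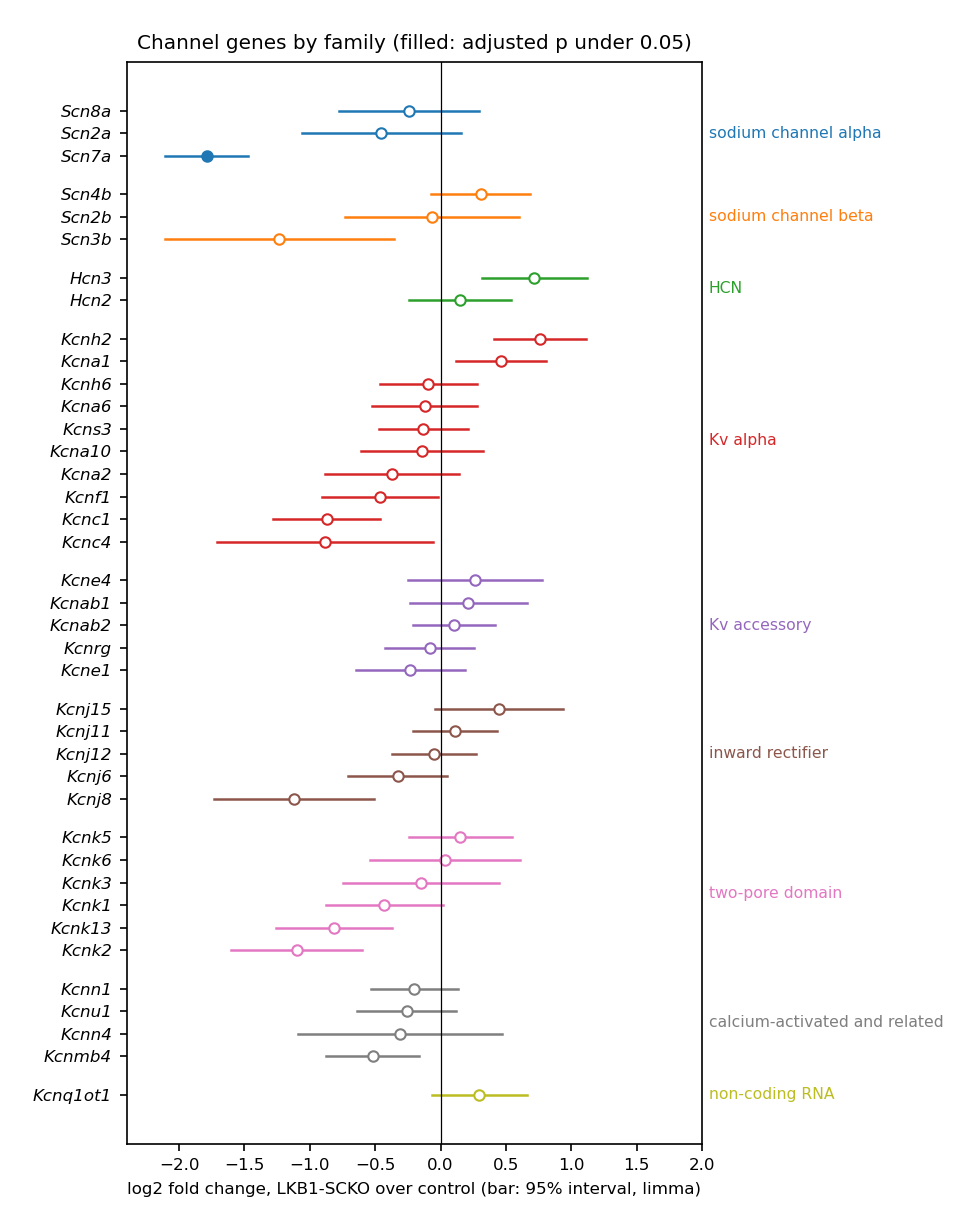
The horizontal axis gives the log2 fold change of each of the 39 tested channel genes, LKB1-SCKO over control, with its 95% interval as a bar, grouped by channel family down the page. The only filled point, past the threshold, is Scn7a at -1.79, and 26 of the 39 points lie left of 0; the points of 5 genes not detected in 1 genotype are measured differences.

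Among sodium channel alpha subunits, 3 of 7 genes were tested and all lay below 0. Scn7a encodes a sodium channel relative that senses extracellular sodium rather than voltage and is known in mouse and rat from non-myelinating Schwann cells. Its unprocessed signal was 285 and 313 in LKB1-SCKO pools, against 725 and 758 in control pools. On the log2 scale these were 7.41 and 7.45 in LKB1-SCKO and 9.20 and 9.24 in control. Both LKB1-SCKO pools were far below both control pools, and the pools of each genotype lay close together (SD 0.031 in LKB1-SCKO and 0.028 in control, n = 2 each). Scn7a fell 3.46-fold (log2 fold change -1.79, SE 0.125, limma, adjusted p = 0.00478). The call held in every other setting of the gene-level fit, with a log2 fold change from -1.81 to -1.77 without each single pool. The smallest change was -1.27, without background correction. Scn7a had no other probe on the array, and in the fit over all kept probes its call was lost without control 2.

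Whether fewer cells with Scn7a or less of its RNA per cell gave this value cannot be told apart in pooled nerve. Of the other 5 listed markers of non-myelinating Schwann cells, L1cam had no probe that passed the filter and the remaining 4 had no member past the threshold. Ngfr, a neurotrophin receptor gene, stood at 0.54 (adjusted p = 0.124), the adhesion gene Ncam1 at -0.40 and the glial filament gene Gfap at -0.36. Cdh2, which encodes N-cadherin, was not detected in LKB1-SCKO pools, where its mean was at least 1.26-fold lower. The measured difference did not pass (limma, adjusted p = 0.111). These 4 markers summed to 3367 and 3282 in LKB1-SCKO pools and 3550 and 2761 in control pools, and the sums overlapped. Ngfr and Ncam1, which changed in opposite directions, gave most of this sum. Taken singly, Ngfr was higher in both LKB1-SCKO pools than in either control pool. Ncam1, Gfap and the measured values of Cdh2 were lower in both, as Scn7a was. The 6 tested markers of myelinating Schwann cells summed to 128810 and 136730 in LKB1-SCKO and 149880 and 148510 in control pools, with Drp2 past the threshold (log2 fold change -0.91, limma, adjusted p = 0.0457). The part of these cells in the value of Scn7a was not tested.

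The sequence before the annotated start of Scn7a is shown because it is the one channel gene past the threshold, with those of Kcnj8 and Kcnh2, chosen after their values were seen, as members far from 0 in either direction with an entry in the promoter table. RefSeq (GRCm38.p6) had an entry for 31 of the 39 tested genes. Each line gives the 250 bases before the start, on the minus strand, at chr2:66784911-66785160 for Scn7a, chr6:142571615-142571864 for Kcnj8 and chr5:24329592-24329841 for Kcnh2. Capitals mark a match to the half-site of the cAMP response element, TGACG, here read on the opposite strand.
Scn7a: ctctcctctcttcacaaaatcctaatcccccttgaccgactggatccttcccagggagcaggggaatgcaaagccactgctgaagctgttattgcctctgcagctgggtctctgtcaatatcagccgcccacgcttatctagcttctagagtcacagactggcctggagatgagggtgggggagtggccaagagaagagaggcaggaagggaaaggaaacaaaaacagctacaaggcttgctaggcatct
Kcnj8: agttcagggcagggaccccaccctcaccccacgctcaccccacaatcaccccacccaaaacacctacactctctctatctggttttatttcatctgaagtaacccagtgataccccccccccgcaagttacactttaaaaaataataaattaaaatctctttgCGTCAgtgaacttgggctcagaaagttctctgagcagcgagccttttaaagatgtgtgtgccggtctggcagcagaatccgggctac
Kcnh2: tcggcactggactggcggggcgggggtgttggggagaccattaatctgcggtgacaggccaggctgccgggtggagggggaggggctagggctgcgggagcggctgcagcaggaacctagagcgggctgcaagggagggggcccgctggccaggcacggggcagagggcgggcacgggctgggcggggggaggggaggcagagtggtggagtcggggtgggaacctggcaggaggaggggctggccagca
Motifs were searched on both strands. The full cAMP response element TGACGTCA, which contains the half-site, was present in 1.55% of 32851 such sequences, the half-site in 17.8%, a SOX core ACAAAG in 16.5% and the TATA box TATAAA in 12.4%. Kcnj8 had 1 half-site, 87 to 83 bases before the start, and none of the 4 motifs was found in the other two windows. The Scn7a window had 53.2% G and C with 3 CpG, the Kcnj8 window 49.2% with 6 and the Kcnh2 window 73.6% with 14, beside a median of 52.4% over all windows, and 94.7% of windows had less G and C than that of Kcnh2.

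The other tested alpha subunits were neuronal ones close to background. Scn8a, the main channel of mature nodes, stood at 5.47 and 5.53 in LKB1-SCKO and 6.02 and 5.46 in control pools, so the genotypes overlapped (log2 fold change -0.24, 95% interval -0.77 to 0.30). Its second kept probe was detected in both control pools and in no LKB1-SCKO pool, at 4.84 and 5.26 in LKB1-SCKO and 5.57 and 5.43 in control, with no overlap (limma, adjusted p = 0.268 over the kept probes). Scn2a, a channel of immature nodes and unmyelinated axons, was detected in 1 of 2 LKB1-SCKO pools and both control pools, at 5.05 and 5.59 in LKB1-SCKO against 5.97 and 5.58 in control (log2 fold change -0.45, SE 0.24, limma, adjusted p = 0.333). Its other 2 kept probes were detected in both control pools and in no LKB1-SCKO pool, and neither passed (limma, adjusted p = 0.125 and 0.123 over the kept probes).

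All 3 sodium channel beta subunit genes on the array were tested. Scn3b encodes an auxiliary subunit that modifies gating and surface level of the alpha subunit. At its brightest probe the unprocessed signal was 289 and 242 in LKB1-SCKO pools, against 373 and 556 in control pools. The log2 values were 7.45 and 6.70 in LKB1-SCKO and 7.94 and 8.68 in control. The genotypes did not overlap, but the pools of each were spread (SD 0.53 in LKB1-SCKO and 0.53 in control, n = 2 each), and the log2 fold change of -1.23 missed the threshold (SE 0.348, limma, adjusted p = 0.130).

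Scn3b had 2 further kept probes. One stood at 5.93 and 5.19 in LKB1-SCKO and 7.04 and 6.81 in control (log2 fold change -1.36, limma, adjusted p = 0.0743 over 19732 kept probes). The other stood at 5.45 and 5.15 in LKB1-SCKO and 6.64 and 6.31 in control (log2 fold change -1.18, SE 0.191, limma, adjusted p = 0.0489 over the kept probes), and each of these probes was detected in 1 of 2 LKB1-SCKO pools. All 3 kept probes thus lay between -1.36 and -1.18, and with the mean over probes the gene was called (log2 fold change -1.26, limma, adjusted p = 0.0491). At the level of probes 2 of the 55 channel probes passed, those of Scn7a and this one of Scn3b, both lower. This is 3.64%, beside 2.52% of all kept probes called in either direction and 0.872% called lower. All of these probes read the same 4 pools and are not independent.

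The remaining beta subunits did not pass. Scn4b stood at 7.31 and 7.43 in LKB1-SCKO and 7.18 and 6.94 in control pools (log2 fold change 0.31, 95% interval -0.07 to 0.68), and its other kept probe stood at -0.21, so its probes differed in sign. Scn2b, whose product is linked covalently to the alpha subunit, stood at 7.51 and 6.76 in LKB1-SCKO and 7.17 and 7.24 in control pools, where the LKB1-SCKO values spanned those of the controls (log2 fold change -0.06).

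**Figure D2:**
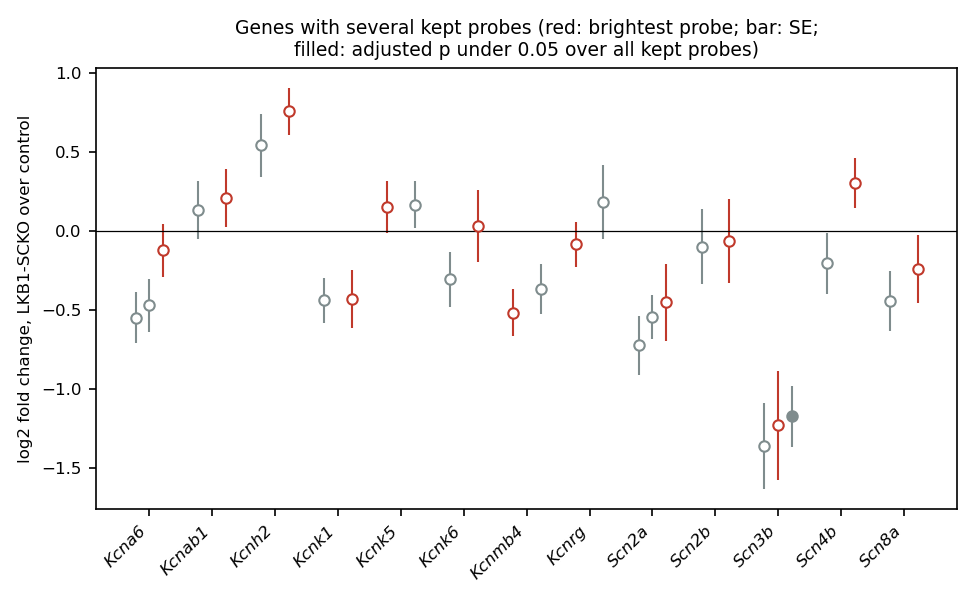
The vertical axis gives the log2 fold change, LKB1-SCKO over control, of every kept probe of the 13 channel genes with several kept probes, with its SE as a bar and the brightest probe in red. The 3 probes of Scn3b lie together from -1.36 to -1.18, while probes of Kcnk6, Kcnrg and Scn4b lie on both sides of 0, and probes of Scn2a and Scn8a not detected in LKB1-SCKO are drawn at their measured differences.

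Of the voltage-gated potassium channels, none of the 10 tested alpha subunit genes passed at an adjusted p under 0.05 (limma, with 5 at an unadjusted p under 0.05), with 8 below 0 and 2 above. Over all genes, 22.4% had an unadjusted p under 0.05 and 48.4% lay below 0. Kcnc1, Kcnf1, Kcns3 and Kcna10, all below 0, passed the filter through the control pools only, so these counts are given as descriptions. Kcna1 and Kcna2 encode the Shaker channels of the juxtaparanode, which also occur in Schwann cells. Kcna1, named after its values were seen, stood at 8.50 and 8.43 in LKB1-SCKO and 7.92 and 8.08 in control pools, with no overlap (log2 fold change 0.46, SE 0.136, limma, adjusted p = 0.139). Kcna2 stood at 10.20 and 10.63 in LKB1-SCKO and 10.93 and 10.65 in control pools (log2 fold change -0.37, SE 0.201, limma, adjusted p = 0.342). These 2 genes of 1 channel complex thus had opposite signs, and the difference between them was not tested.

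Kcna6, a further Shaker gene, gave an unprocessed signal of 3550 and 4387 in LKB1-SCKO and 4841 and 4221 in control pools at its brightest probe, with overlap (log2 fold change -0.12, 95% interval -0.53 to 0.28). At its other kept probes the genotypes did not overlap. They stood at 10.56 and 10.85 in LKB1-SCKO against 11.10 and 11.26 in control, and at 6.46 and 6.69 against 7.04 and 7.20, with log2 fold changes of -0.47 and -0.55 that did not pass (limma, adjusted p = 0.209 and 0.151 over the kept probes).

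Kcnh2, the ERG channel gene known for repolarising heart muscle and named after its values were seen, was the channel gene nearest to the threshold on the higher side. Its unprocessed signal was 735 and 816 in LKB1-SCKO pools, against 553 and 509 in control pools. The log2 values were 9.35 and 9.40 in LKB1-SCKO and 8.71 and 8.51 in control (log2 fold change 0.76, SE 0.139, limma, adjusted p = 0.0549). Its second kept probe also had no overlap, at 8.39 and 7.91 in LKB1-SCKO and 7.65 and 7.56 in control (log2 fold change 0.54). Kcnh2 was called in 3 of 15 other settings, with adjusted p from 0.0238 to 0.256 (limma) over all of them. Its relative Kcnh6 stood at -0.10, with pools that overlapped.

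Kcnc1 and Kcnc4 encode channels of fast repolarisation. Kcnc1 was detected in both control pools and in neither LKB1-SCKO pool, at 4.71 and 4.85 in LKB1-SCKO and 5.50 and 5.80 in control. At this probe its mean was at least 1.36-fold lower, where the dimmer genotype was set at the lowest detected signal of each array. Such a bound compares means and is no confidence limit. The measured difference did not pass (limma, adjusted p = 0.0558). The other probe of Kcnc1 was detected on no array, at 4.95 and 4.73 in LKB1-SCKO and 4.84 and 4.81 in control. Kcnc4, which skeletal muscle also expresses, stood at 5.76 and 6.74 in LKB1-SCKO and 7.17 and 7.10 in control pools (log2 fold change -0.88, SE 0.327, limma, adjusted p = 0.204). Its lowest value was in LKB1-SCKO 1, the pool with the lowest muscle markers, and without LKB1-SCKO 2 it was called (log2 fold change -1.37, adjusted p = 0.0211). The part of muscle in this value was not tested.

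Kcnf1, a subunit that forms no channel alone, was detected in both control pools only. Its kept probe stood at 5.04 and 5.13 in LKB1-SCKO and 5.75 and 5.35 in control. At this probe its mean was at least 1.26-fold lower in LKB1-SCKO, and the measured difference did not pass (limma, adjusted p = 0.210). The other probe of Kcnf1 was detected on no array, at 4.58 and 4.62 in LKB1-SCKO and 4.52 and 4.49 in control. The silent subunit gene Kcns3 and the Shaker-related gene Kcna10 stood at -0.13 and -0.14, each detected in 1 of 2 LKB1-SCKO pools. Of the 5 tested accessory subunit genes none passed the threshold. Kcnab2, a cytoplasmic beta subunit of Shaker channels, was at 8.68 and 8.69 in LKB1-SCKO and 8.59 and 8.58 in control pools (log2 fold change 0.10, 95% interval -0.21 to 0.41). Kcnab1, its relative, stood at 0.21, the single-span subunit gene Kcne4 at 0.27, Kcnrg, a suppressor of channel assembly, at -0.08. The kept probe of Kcne1 was detected in the control pools only, close to background, and another of its probes, which did not pass the filter, was detected in 1 pool of each genotype, so no fold is given.

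**Figure D3:**
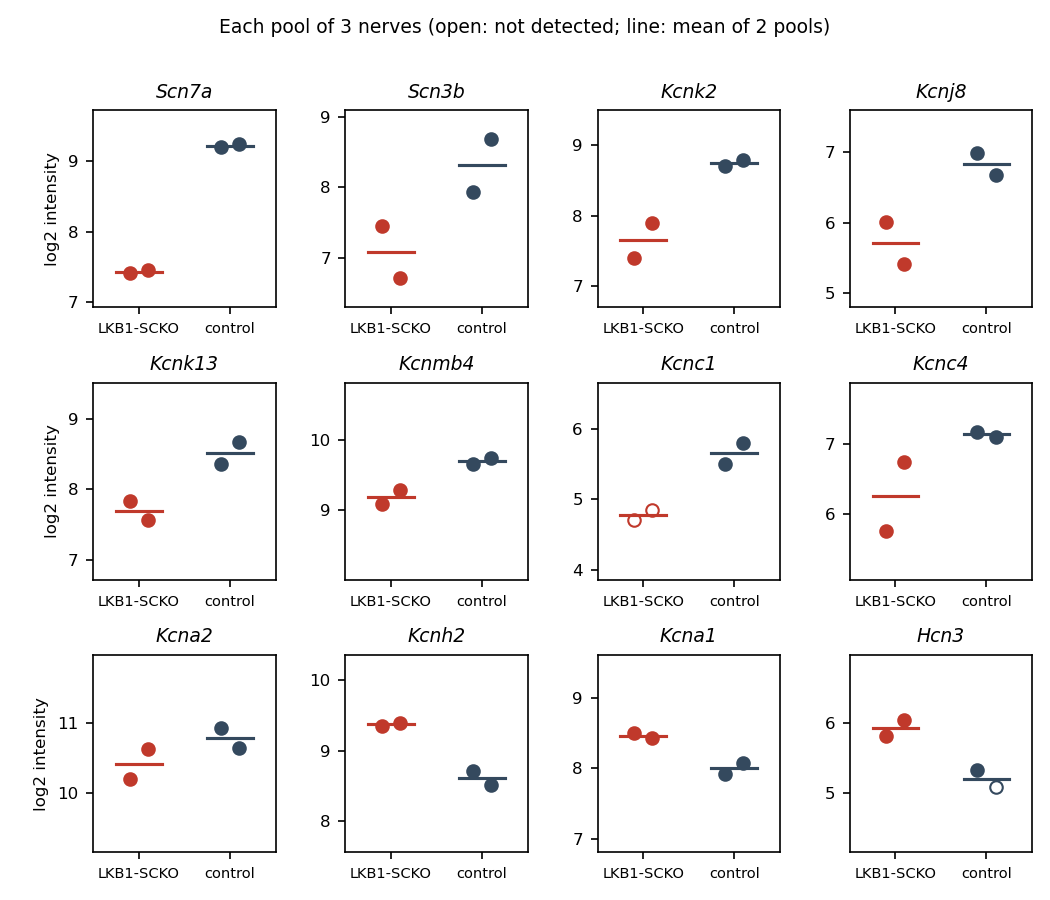
Each panel gives the log2 intensity of 1 channel gene in the 2 LKB1-SCKO pools (left) and the 2 control pools (right), with the mean as a line and open points where the probe was not detected. Every panel spans the same range of 2.8 log2 units, and the gap is widest for Scn7a, while Kcna2 has pools that nearly touch.

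Tandem-pore potassium channels give the leak that sets the resting potential, and 4 of the 6 tested genes lay below 0 with none past the threshold. Kcnk2, which encodes a channel opened by stretch and fatty acids, had unprocessed signals of 285 and 379 in LKB1-SCKO and 551 and 591 in control pools. The log2 values were 7.41 and 7.90 in LKB1-SCKO and 8.71 and 8.80 in control, and the difference missed the threshold (log2 fold change -1.10, SE 0.198, limma, adjusted p = 0.0532). It passed in 6 of 15 other settings, including without background correction (-0.76, adjusted p = 0.0258) and without LKB1-SCKO 2 (-1.35, adjusted p = 0.0218).

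Kcnk13, known in mouse from microglia and named after its values were seen, stood at 7.83 and 7.56 in LKB1-SCKO and 8.36 and 8.66 in control pools (log2 fold change -0.82, SE 0.175, limma, adjusted p = 0.0757). Of 8 tested macrophage markers, 7 lay above 0 with 3 past the threshold, among them Cx3cr1, the fractalkine receptor gene, at 1.87 (limma, adjusted p = 0.0287). The remaining one, Mrc1, stood at -0.47, with pools that overlapped. The part of macrophages in the value of Kcnk13 was not tested. Kcnk1 gave signals of 4577 and 3851 in LKB1-SCKO and 5421 and 6568 in control pools. The genotypes did not overlap, and both kept probes of Kcnk1 stood at -0.43 and -0.44 (adjusted p = 0.240 for the brightest). The acid-sensitive channel gene Kcnk5 stood at 9.57 and 9.51 in LKB1-SCKO and 9.54 and 9.24 in control pools (log2 fold change 0.15), its acid-sensitive counterpart Kcnk3 at -0.15 and Kcnk6 at 0.03, and each had overlapping pools.

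Of 5 tested inward rectifier genes none passed. Kcnj8 encodes the pore of the ATP-sensitive potassium channel of vascular smooth muscle and pericytes. It stood at 6.01 and 5.41 in LKB1-SCKO and 6.99 and 6.68 in control pools. Both LKB1-SCKO pools were below both control pools (log2 fold change -1.12, SE 0.242, limma, adjusted p = 0.0763), and without LKB1-SCKO 1 the gene was called (log2 fold change -1.42, adjusted p = 0.0446). Abcc9, the receptor subunit of the same channel, stood at 5.92 and 6.73 in LKB1-SCKO and 7.10 and 6.77 in control pools (log2 fold change -0.61, adjusted p = 0.300). Of 9 tested markers of vascular smooth muscle and pericytes, Abcc9 among them, none passed, 5 lay below 0 and 4 above. Cnn1 had no probe that passed the filter, and their summed intensity was 10283 and 13936 in LKB1-SCKO and 13067 and 9362 in control pools.

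Kcnj11, the ATP-sensitive pore gene of pancreas and muscle, was detected in both LKB1-SCKO pools and in neither control pool. It stood at 5.23 and 5.29 in LKB1-SCKO and 5.17 and 5.14 in control, where the bound from the means was 1.05-fold higher. The measured difference did not pass, and its interval held 0 (log2 fold change 0.11, 95% interval -0.21 to 0.43, limma, adjusted p = 0.647). Kcnj6, a G-protein-gated channel gene, was detected in control pools only, too close to background for a bound on its fold (limma, adjusted p = 0.276). Kcnj12, a strong inward rectifier gene, stood at 7.04 and 6.98 in LKB1-SCKO and 7.08 and 7.03 in control (log2 fold change -0.05, 95% interval -0.37 to 0.27). Kcnj15 stood at 0.45 (adjusted p = 0.257).

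All 4 tested genes of calcium-activated and related potassium channels lay below 0, from -0.52 to -0.20, and none passed. Kcnmb4, a beta subunit of the large-conductance channel, stood at 9.08 and 9.28 in LKB1-SCKO and 9.66 and 9.74 in control pools (log2 fold change -0.52, SE 0.14, limma, adjusted p = 0.119), with its other kept probe at -0.37. Kcnma1, the pore subunit that it serves, was detected on no array with any of its 3 probes. Kcnu1, known from sperm, stood at -0.26, the small-conductance gene Kcnn1 at -0.20 and the intermediate-conductance gene Kcnn4 at -0.31, where control pools alone ranged from 5.17 to 6.09.

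HCN channels, which open on hyperpolarisation and drive pacemaker currents, had 2 tested genes, both above 0. Hcn3 stood at 5.82 and 6.04 in LKB1-SCKO and 5.33 and 5.09 in control pools, where 1 of 2 detected it (log2 fold change 0.72, SE 0.159, limma, adjusted p = 0.0821). This probe passed the filter through the LKB1-SCKO pools only, and the other probes of Hcn3 were detected on no array. They stood at 4.40 and 5.07 in LKB1-SCKO against 4.78 and 4.59 in control, and at 4.74 and 4.56 against 4.61 and 4.68. Hcn2 stood at 6.77 and 6.81 in LKB1-SCKO and 6.79 and 6.49 in control pools, with overlap (log2 fold change 0.15, 95% interval -0.24 to 0.54).

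Genes that anchor or serve these channels were taken from lists written with earlier results known. Of 10 tested sodium channel partners of the node none passed, with a median of -0.10, 3 above 0 and 7 below. Another 6 of the 16 listed, among them Sptbn4 and Cntnap1, had no probe that passed the filter. The largest changes in either direction, named after their values were seen, were Cntn1 at 1.02 and Ank3 at -0.58 (limma, adjusted p = 0.0654 and 0.0867). Among the brightest, Gldn, which encodes the Schwann cell protein gliomedin that gathers nodal channels, stood at 0.23 and the spectrin gene Sptbn1 at -0.35. Of 12 tested potassium channel partners, out of 18 listed, 1 fell. Lgi1, which encodes a secreted ligand of the Shaker channel partner ADAM22, stood at 7.25 and 7.72 in LKB1-SCKO and 9.17 and 9.04 in control pools. It fell 3.07-fold (log2 fold change -1.62, SE 0.194, limma, adjusted p = 0.0209), a call lost without control 1 (adjusted p = 0.0696) or control 2 (0.0759) and with a replicate block (0.0536). Its Schwann cell relative Lgi4 stood at -0.74 (adjusted p = 0.084).

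The sodium-potassium pump restores the gradients that these channels use, and 2 of its 9 tested genes fell. None of its listed alpha subunit genes had a probe that passed the filter. Atp1b2, the beta subunit gene known from glia, stood at 8.78 and 9.14 in LKB1-SCKO and 10.58 and 10.53 in control pools. It fell 3.01-fold (log2 fold change -1.59, SE 0.169, limma, adjusted p = 0.0143). Fxyd1, which encodes the pump regulator phospholemman, stood at 6.91 and 7.26 in LKB1-SCKO and 8.26 and 8.36 in control pools and fell (log2 fold change -1.23, SE 0.167, limma, adjusted p = 0.0281). Without control 1 or control 2 the calls of Atp1b2 (adjusted p = 0.0531 and 0.0668) and Fxyd1 (0.0842 and 0.133) were lost, and that of Fxyd1 also without LKB1-SCKO 1 (0.0598), with a replicate block (0.0599) and with crossed numbers (0.0504). Other beta subunits did not share the sign, with Atp1b1 at 0.64 and Atp1b3 at 0.04, neither past the threshold.

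**Figure D4:**
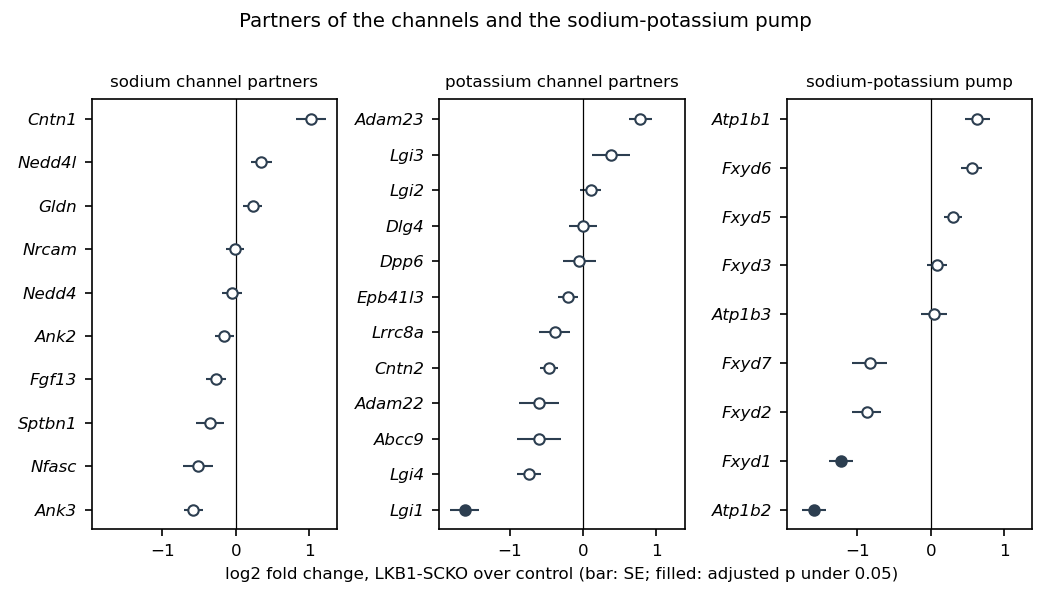
Each panel gives the log2 fold change, LKB1-SCKO over control, of the tested genes of 1 list with its SE as a bar. The filled points past the threshold are Lgi1 at -1.62, Fxyd1 at -1.23 and Atp1b2 at -1.59, and both other beta subunit genes of the pump lie above 0.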

How the data were processed

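Each array's file, as deposited, holds a signal intensity per probe that is not normalized and a detection p-value beside it, per the file headers. The submitters' processing notes name GenomeStudio (2010). No source used here gives the slides. Another deposited table, of intensity values the authors had processed by steps not stated, served as an alternative. Symbols came from the platform annotation, which pairs each of the 202 channel probes with a gene identifier found in the RefSeq gene table.

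Background was corrected in limma 3.58.1 under R 4.3.3 by normexp, whose negative controls were inferred from detection p-values, with 16 as the offset. Quantile normalization and log2 followed. The detection filter kept 19732 probes, and the brightest kept probe stood for each of 10858 genes. A two-sided limma fit (lmFit, eBayes) had genotype as its single term, and p-values were adjusted by Benjamini-Hochberg at 0.05 over all genes, or over all kept probes where probes are compared. Residual degrees of freedom were 2 and prior ones 3.29, and intervals are 95% intervals of that fit. Precision is limited by having 4 arrays. The nerves of a pool come from different mice, so the spread between pools holds biological and technical variation. The fit was tested on simulated data.

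The members and lists were chosen with earlier results of these data known. Genes named by rule were those past the threshold, in each family the 2 brightest and the largest change with no overlap of pools, those detected in 1 genotype only, and from each list of partners up to 4 past the threshold or the 2 brightest. The other tested channel genes are given to account for all 39. Alternatives were other background corrections, normalizations, filters, probe summaries, array weights, a replicate block and leaving out each pool.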

Additional observations from a re-analysis of the deposited data

How the results depend on the processing

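Scn7a was past the threshold in all 15 other settings of the gene-level fit. The count of channel genes called lower, 1 in the setting reported, was 2 without background correction, with an offset of 50, with median scaling, with the stricter detection filter, with the mean over probes and with array weights, through Kcnk2 or, with the mean over probes, Scn3b, and ranged from 1 to 3 when each pool was left out. The count called higher was 1, Kcnh2, without background correction, with an offset of 50 and with the stricter filter. Channel probes called, 2 as reported, were 5 with an offset of 50, 1 with the authors' processed values, 1 without the detection filter and 0 to 3 with each pool left out. Over all genes, 412 as reported, the count was 636 without background correction and 112 to 483 with each pool left out. Deviations of same-numbered pools correlated at -0.172 over genes, and the numbers do not pair mice. With a replicate block 172 genes and 1 channel probe were called, and Scn7a kept its call (adjusted p = 0.0242). With the numbers crossed, added after seeing the data, 310 genes were called, 2 of them channel genes, both lower. Signs turned only for genes that did not pass. With each pool left out, the log2 fold change ranged from -0.000381 to 0.296 for Hcn2, -0.188 to 0.254 for Kcnk6 (-0.181 without LKB1-SCKO 1), -0.466 to 0.164 for Kcnk3, -0.77 to 0.148 for Kcnn4, -0.222 to 0.0315 for Kcnh6, -0.36 to 0.0783 for Kcna10, -0.517 to 0.0389 for Scn8a and -0.438 to 0.311 for Scn2b. Kcnk6 also turned with median scaling (-0.0548), the mean over probes (-0.136) and its other probe (-0.306), Kcnrg with the mean over probes (0.0507) and its other probe (0.185), Kcne1 without the detection filter (0.15) and Scn4b at its other probe (-0.205). Beyond the settings without 1 pool, the call of Stk11 was lost with the authors' processed values (adjusted p = 0.0625), without the detection filter (0.0583), with a replicate block (0.109) and with crossed numbers (0.0695). The cause of the remaining changes was not tested. With signals close to background, as for Kcnc1, Kcnj6 or Scn2a, only bounds or partial detection are available.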

Other observations

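Voltage-gated calcium channels, listed beside the sodium and potassium channels, had 8 of 26 genes with a probe that passed the filter. One rose: Cacna1h, which encodes a low-voltage-activated calcium channel, stood at 8.09 and 8.05 in LKB1-SCKO and 7.23 and 6.96 in control pools (log2 fold change 0.97, SE 0.149, limma, adjusted p = 0.0368). The call was lost in 7 of 15 other settings: without each pool in turn (adjusted p between 0.0614 and 0.174), with a replicate block (0.0941), with crossed numbers (0.0573) and with the authors' processed values (0.0539). The list's median was -0.09, with 3 genes above 0 and 5 below.

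The symbol rule also took in Kcnq1ot1, a long non-coding RNA transcribed antisense to a potassium channel gene that is known for imprinting and is no channel subunit. At its kept probe it stood at 8.62 and 8.67 in LKB1-SCKO and 8.23 and 8.47 in control pools (log2 fold change 0.30, SE 0.145, limma, adjusted p = 0.298). Another probe of Kcnq1ot1 did not pass the filter and was detected in 1 pool of each genotype. That probe stood at 5.23 and 5.15 in LKB1-SCKO and 4.76 and 5.18 in control pools. The host gene of this RNA, Kcnq1, had no probe that passed the filter.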
